A study of Mus musculus with 6 samples.

Results

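The cytosolic ribosomal protein genes were followed in lung innate lymphoid cells (ILCs) of wild-type and Rbm3 knockout mice. They were taken from the deposited gene table by symbol: Rpl or Rps with a number and an optional letter or paralog ending, together with Rplp0, Rplp1, Rplp2 and Rpsa. Of the table's 14416 genes, 83 had such a symbol. One of them, Rps4y2, is annotated as a pseudogene and was left out, so 82 members remained: 45 core genes of the large (60S) subunit, 31 core genes of the small (40S) subunit and 6 paralogs (Rpl3l, Rpl7l1, Rpl22l1, Rpl36al, Rpl39l and Rps27l). Of these, 81 had enough counts to be tested. Rpl3l, a paralog known from muscle, did not, with counts of 0, 7 and 2 in WT and of 0 in each RBM3KO library.

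The samples were Lin-Thy1.2+ ILCs sorted from lungs, 3 of C57BL/6J mice labelled WT and 3 of C57BL/6J mice labelled RBM3KO, measured by Smart-seq2 RNA-seq of polyA RNA. All mice of both genotypes had received Alternaria alternata, a mould that evokes type 2 inflammation of the airways, at 25 µg on 3 occasions over 7 days, so no unchallenged cells were compared. RBM3 binds RNA and is induced by mild cold, and the comparison asks what its loss does to the transcripts of these cells. The construction of the knockout allele and the tissues that lack it were not given in the sources used here. Nor do the labels say that each replicate is a separate animal, so a p-value here reflects the spread of these libraries alone, which may be technical.

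The cytosolic ribosome is built from ribosomal RNAs and a set of proteins that are needed in fixed proportions. Vertebrate ribosomal protein mRNAs are abundant, and many begin with a 5' terminal oligopyrimidine (TOP) tract, a C followed by a run of C and T, through which mTOR and LARP1 control their translation together. Lymphocytes that grow and divide raise ribosome production, and ribosomal protein genes are therefore often read as a sign of growth.

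Because of that shared tract, the sequence around the transcription start is shown for members that the results turn on. RefSeq's promoter table (GRCm38.p6) held a start for 62 of the 82 members, and the other 20, Rplp1 among them, had none. The letters CTTTC were searched from 50 bases before to 50 bases after the start. On the transcript's strand they stood at 36 of the 74 starts of members (48.6%), against 10.1% of the starts of tested genes that are no members and 12.8% of all 32851 starts in the table. On the opposite strand the shares were 12.2%, 9.4% and 12.1%. The longer CTCTTTC, which contains CTTTC, stood at 17.6% of the members' starts and 1.2% of those of other tested genes. The windows below are 30 bases long and run 5' to 3' on the transcript's strand, and capitals mark the CTTTC nearest the start (Rpl35 and Rps27 hold another, left in lower case).
Rplp2 (chr7:141447639-141447668, plus strand): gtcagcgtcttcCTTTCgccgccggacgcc
Rpl12 (chr2:32961710-32961739, plus strand): ccgtcttttcggCTTTCggctcggaggagg
Rpl13a (chr7:45128719-45128748, minus strand): caagacctcctcCTTTCccaggcggctgcc
Rpl31 (chr1:39367870-39367899, plus strand): acggctacgcgaCTTTCcctcccacaaacc
Rpl35 (chr2:39005112-39005141, minus strand): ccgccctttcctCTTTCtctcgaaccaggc
Rps27 (chr3:90213630-90213659, minus strand): ccgctttcgctcCTTTCcggcggtgacgac
Rplp0 (chr5:115559452-115559481, plus strand): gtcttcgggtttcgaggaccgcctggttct
Rps28 (chr17:33824548-33824577, minus strand): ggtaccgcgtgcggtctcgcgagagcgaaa
Rps27l (chr9:66946071-66946100, plus strand): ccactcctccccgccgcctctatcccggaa
Rpl7l1 (chr17:46782642-46782671, minus strand): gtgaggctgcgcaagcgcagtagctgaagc
The last 4 windows are centred on a start within 50 bases of which the letters were not found, which says only that these letters are not in that stretch. In the first 6 windows, the capitals begin at base 1 (Rplp2), 11 (Rpl12), 10 (Rpl13a), 32 (Rpl31), 3 (Rpl35) and 2 (Rps27) after the start. The search did not require the letters to begin the transcript, so a match is not shown to be a TOP tract. The match is a description of the sequence and not a mapped site.

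Rbm3 itself, which checks the labels, had 3649, 5336 and 7473 counts in WT and 406, 375 and 235 counts in RBM3KO (log2 fold change, log2FC, -3.45 ± 0.15 SE, adjusted p = 2.2e-06 by edgeR). Library totals ran from 7498247 counts in RBM3KO replicate 3 to 25068137 in WT replicate 3, and a count of 0 allowed up to 3 counts, or 0.120 to 0.400 CPM (counts scaled to a common library total). All 14 genes listed for ILC identity, which included Id2, Gata3 and Il7r but also Ptprc, Tbx21 and Eomes, were detected in every library. Their summed levels were 4318 to 4709 CPM in WT and 5123 to 5302 CPM in RBM3KO. Genes listed as markers of other cells were present at lower summed levels: 439 to 556 CPM in WT and 522 to 681 CPM in RBM3KO for 8 T cell genes, 67.5 to 90.7 CPM and 40.4 to 44.5 CPM for 9 B cell genes, and 142 to 297 CPM and 110 to 166 CPM for 15 myeloid genes. The highest genes of the T cell list were Lat (means of 273 CPM in WT and 335 CPM in RBM3KO) and Cd3g (177 and 243 CPM). Together they made up most of the list's sum in both genotypes, and neither was called. Cd8a was at 0 in WT replicates 1 and 3 and RBM3KO replicate 2, and Cd8b1 in RBM3KO replicates 1 and 2. Cd5 was at 0 in WT replicate 3 and in every RBM3KO library. Which cells these transcripts came from was not tested.

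No ribosomal protein gene passed the test between the genotypes: 0 of 81 tested members were called at an adjusted p under 0.05 (edgeR's quasi-likelihood test, Benjamini-Hochberg over 11382 genes), where 1.25% of all tested genes were called, 0.246% higher and 1.00% lower in RBM3KO. An unadjusted p under 0.05 was reached by 2 members, Rpl7l1 among them, against 12.3% of all tested genes. DESeq2's Wald test and limma-voom also called 0 members. The log2 fold changes of the members had a median of -0.01, with quartiles at -0.06 and 0.05 and extremes at -0.36 and 0.48, and 39 lay above and 42 below 0. Over all tested genes the median was 0.01, with quartiles at -0.29 and 0.27. In bulk RNA of sorted cells, fewer cells of a type and less RNA per cell cannot be told apart.

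The members' fold changes were also measured closely. For 77 of the 81 tested members the 95% interval lay within a 2-fold change in either direction, and for 76 within a 1.5-fold change, compared with 5499 and 2608 of the 11382 tested genes. The exceptions to the 2-fold bound were Rpl30, Rpl34, Rpl39l and Rps27, each with a mean under 10 CPM. The median half-width of the interval was 0.228 on the log2 scale for members and 0.694 for all tested genes. Such narrow intervals were not particular to the members. For 78 tested nuclear genes of oxidative phosphorylation the median half-width was 0.233, with 74 within the 2-fold and 73 within the 1.5-fold bound. Of the 81 fold changes, 76 were within 0.2 and 65 within 0.1 of 0 on the log2 scale. Large subunit core genes had a median of -0.01, small subunit core genes of 0.01 and the 5 tested paralogs of -0.06.

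**Figure D1:**
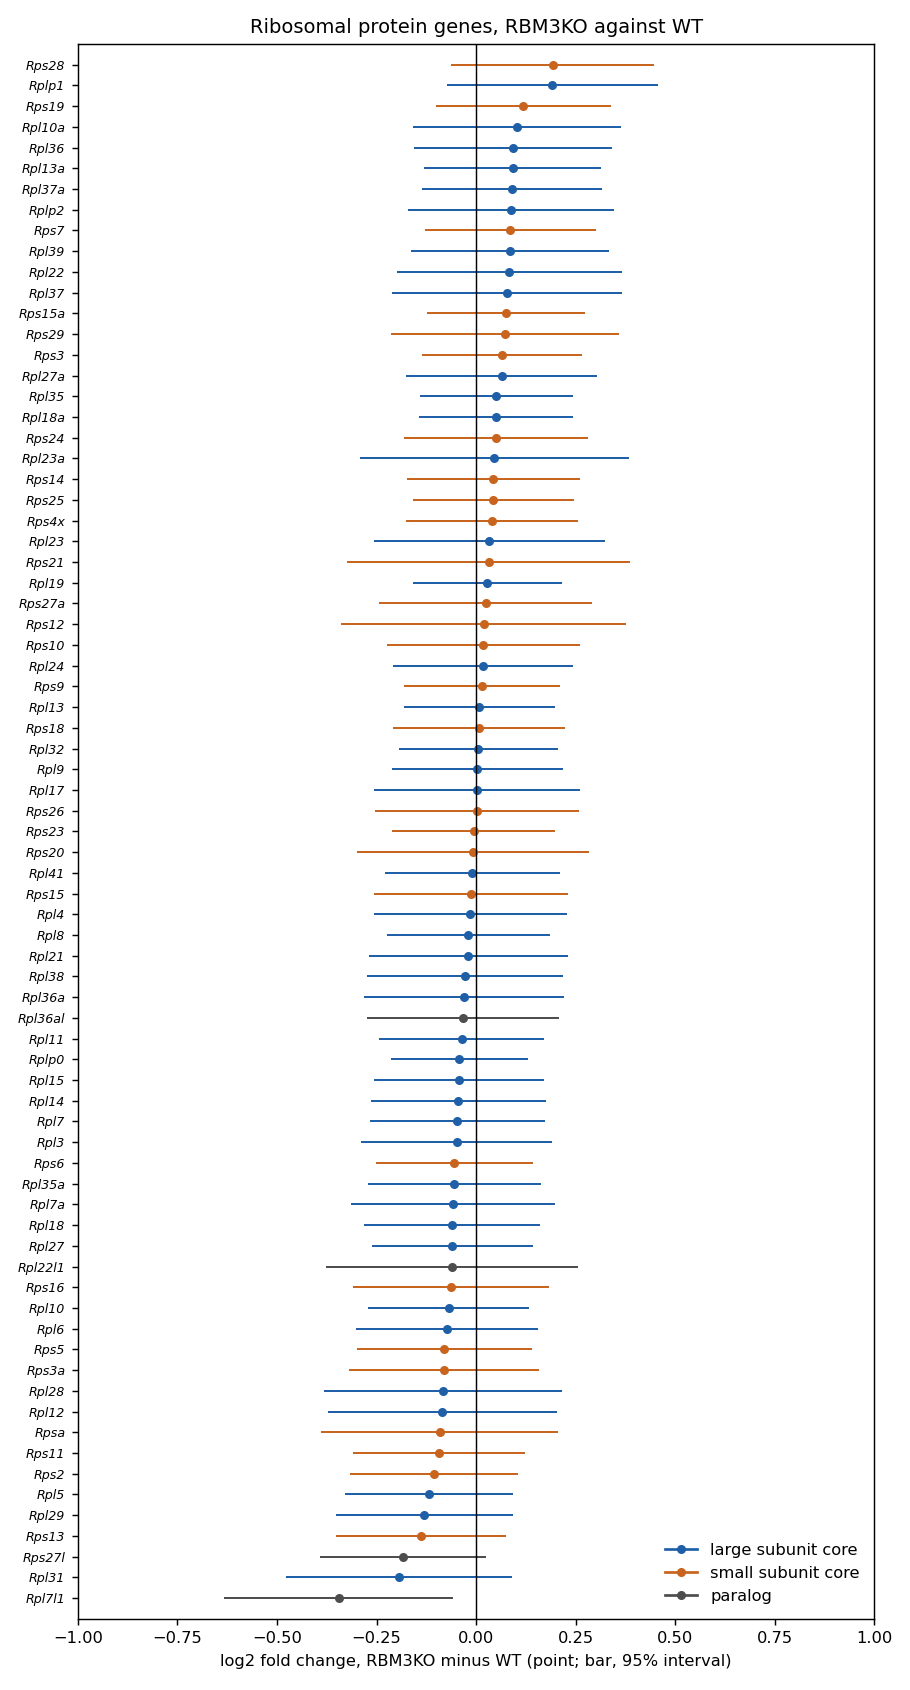
Log2 fold change of RBM3KO against WT (points, with 95% intervals as bars) for 75 of the 77 tested members with a mean of at least 10 CPM, ordered by size and coloured by subunit. Most points lie within 0.1 of 0, and the interval of Rpl7l1 at the bottom does not reach 0 before adjustment.

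As a share of all counts, the 82 members together took 6.30%, 6.14% and 6.25% in replicates 1, 2 and 3 of WT. In the same order they took 6.10%, 5.32% and 6.57% in RBM3KO. The WT libraries lay close together, while RBM3KO replicate 2 was the lowest and RBM3KO replicate 3 the highest of all 6. The means were 6.23% ± 0.08 (SD, n = 3) in WT and 6.00% ± 0.63 (SD, n = 3) in RBM3KO, a difference of -0.23 percentage points that is smaller than the SD of the RBM3KO libraries. Counting error is small beside this spread, with an exact binomial 95% interval of 6.55% to 6.59% in the shallowest library. The difference turned to 0.11 points without RBM3KO replicate 2 and was -0.52 points without RBM3KO replicate 3.

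**Figure D2:**
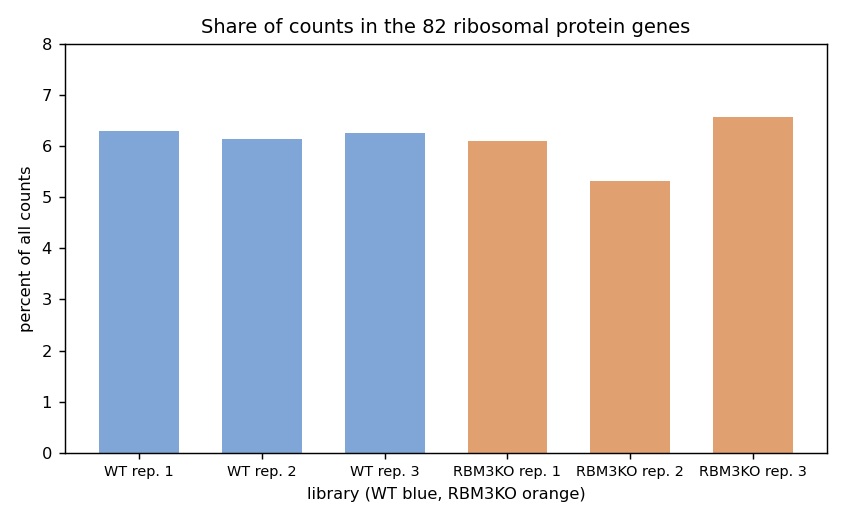
Percent of all counts that fell in the 82 ribosomal protein genes, 1 bar per library with no error bar, WT in blue and RBM3KO in orange. The 3 WT bars lie between 6.14% and 6.30%, and the RBM3KO bars run from 5.32% to 6.57%.

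The proportion of the subunits varied little between libraries. Large subunit core genes took 3.43% ± 0.02 of the counts in WT and 3.32% ± 0.34 in RBM3KO (SD, n = 3 each), and small subunit core genes 2.74% ± 0.07 and 2.62% ± 0.29. The ratio of large to small subunit counts was 1.23, 1.29 and 1.23 in WT and 1.26, 1.28 and 1.26 in RBM3KO, by replicate number. The RBM3KO ratios lay inside the range of the WT ratios.

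The spread among the RBM3KO libraries was shared by nearly all members. For each gene, the deviation of a library was taken as its log2(CPM + 0.5) minus the gene's mean over the 6 libraries. The median deviation of the tested members was 0.03, -0.01 and -0.00 in WT and 0.02, -0.18 and 0.14 in RBM3KO, for replicates 1, 2 and 3 in turn. RBM3KO replicate 2 held the lowest value of the 6 for 65 of 81 members (80.2%), against 1589 of the 11382 tested genes and 15.6% of the 2115 genes with a mean of at least 100 CPM. RBM3KO replicate 3 held the highest value for 50 members (61.7%), against 17.9% of all tested genes. These 2 libraries of one genotype thus bracketed the WT libraries: all 3 WT values lay between the lowest and the highest RBM3KO value for 58 members (71.6%), and for 20.4% of all tested genes.

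**Figure D3:**
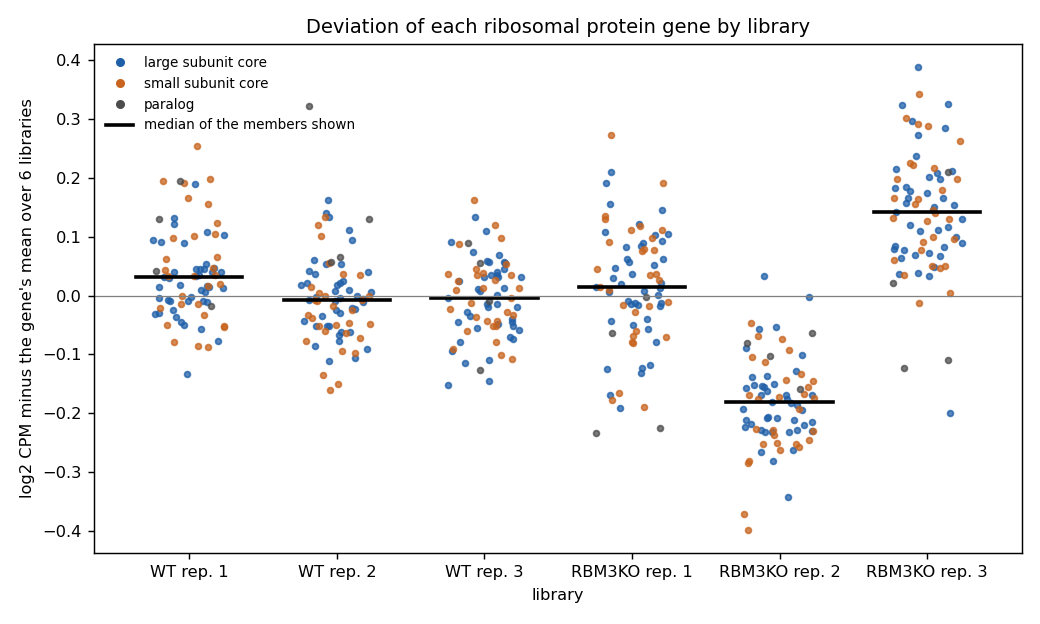
Deviation of each of the 77 tested members with a mean of at least 10 CPM from its own mean over the 6 libraries (log2), 1 point per gene and library, coloured by subunit, with the median as a black bar. Nearly all points of RBM3KO replicate 2 lie below 0 and nearly all of RBM3KO replicate 3 above 0, while the other 4 libraries are centred near 0.

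Between RBM3KO replicates 2 and 3 alone, 79 of 81 members (97.5%) were higher in replicate 3, with a median ratio of 1.23, where 48.6% of all tested genes were higher and the median ratio was 0.988. The SD of log2 values within a genotype had a median over members of 0.057 in WT and 0.182 in RBM3KO, and it was larger in RBM3KO for 72 of 81 members (88.9%, against 58.6% of all tested genes). With each library's median over the members subtracted, the medians were 0.058 in WT and 0.082 in RBM3KO. Leaving out RBM3KO replicate 2 moved the median log2 fold change of the members from -0.01 to 0.08, with 63 above and 18 below 0, and leaving out RBM3KO replicate 3 moved it to -0.09, with 16 above and 65 below. Under both, 0 members were called.

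RBM3KO replicates 2 and 3 also stood out among the 6 libraries in other properties, which did not all follow the order of the members' deviations. RBM3KO replicate 3 was the shallowest library and had the highest level of Malat1, a nuclear RNA, at 731 CPM, compared with 443 and 327 CPM in RBM3KO replicates 1 and 2 and 206 to 302 CPM in WT. It also had the highest sum over 13 markers of epithelium, endothelium and stroma, 428 CPM against 67.9 to 190 CPM in WT and 92.8 to 93.6 CPM in the other RBM3KO libraries. Sftpc, a surfactant protein gene of alveolar epithelium, made up 246 CPM of it, and Krt8, Kdr and Col1a1 were at 0. Such zeros were not particular to that library. Krt8 and Col1a1 were at 0 in both other RBM3KO libraries and Kdr in WT replicate 3, and 2 to 5 of the 13 markers were at 0 in the other libraries. In RBM3KO replicate 2, deviations were higher for longer transcripts over 11276 genes (Spearman's rho 0.152). The rho had the same sign in RBM3KO replicate 3 (0.051) and was -0.070 to -0.011 in the WT libraries and RBM3KO replicate 1. The tested members' transcripts are short, with a median of 775 bases against 2700.5 over all tested genes. With a smooth trend on length removed, the members' median deviation was -0.11 in RBM3KO replicate 2 and 0.11 in RBM3KO replicate 3. With a trend on GC content removed instead, it was -0.21 and 0.13. The part of Malat1, depth and the epithelial markers in the members' levels was not tested.

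The P stalk, made of Rplp0 with Rplp1 and Rplp2 and seated beside Rpl12, recruits the elongation factors to the large subunit. Rplp1 stood at 1455, 1448 and 1368 CPM in the WT libraries and 1673, 1311 and 1895 CPM in the RBM3KO libraries (log2FC 0.19 ± 0.12 SE, adjusted p = 0.593 by edgeR). RBM3KO replicates 1 and 3 were above every WT library and replicate 2 was below, so the groups overlapped. Rplp2 was at 551, 515 and 554 CPM in WT and 568, 484 and 670 CPM in RBM3KO (log2FC 0.09). Rplp0, one of the steadiest members, was at 4133, 4112 and 3945 CPM in WT and 4148, 3592 and 4102 CPM in RBM3KO (log2FC -0.04 ± 0.08 SE). Rpl12 was at 235, 205 and 199 CPM in WT and 189, 178 and 236 CPM in RBM3KO (log2FC -0.08). All 4 were lowest in RBM3KO replicate 2, and none was called. Without that library Rplp1 had the lowest p of any member (log2FC 0.33 ± 0.09 SE, adjusted p = 0.176 by edgeR), and without RBM3KO replicate 3 the highest of its own over all settings (log2FC 0.07, adjusted p = 0.901 by edgeR).

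Rpl5 and Rpl11 bind the 5S ribosomal RNA and, when not built into ribosomes, can bind MDM2, the ubiquitin ligase that holds p53 down. Rpl5 was at 502, 554 and 525 CPM in WT and 500.0, 517 and 439 CPM in RBM3KO (log2FC -0.12 ± 0.09 SE), and unlike most members it was lowest in RBM3KO replicate 3. Rpl11 was at 650, 627 and 646 CPM in WT and 627, 565 and 685 CPM in RBM3KO (log2FC -0.04 ± 0.09 SE). The p53 target Cdkn1a, which restrains the cell cycle, stood at 405, 375 and 518 CPM in WT and 497, 533 and 500.4 CPM in RBM3KO, with overlap between the groups (log2FC 0.24, adjusted p = 0.470 by edgeR). Trp53 had a log2 fold change of -0.05.

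Of the members at the rim of the tunnel through which the new protein leaves, 7 were tested (Rpl17, Rpl19, Rpl22, Rpl23a, Rpl31, Rpl35 and Rpl39) and 0 called, with a median log2 fold change of 0.05. Rpl31 was the lowest of them, at 228, 214 and 228 CPM in WT and 182, 171 and 234 CPM in RBM3KO (log2FC -0.19 ± 0.13 SE, adjusted p = 0.622 by edgeR). RBM3KO replicates 1 and 2 were below all WT libraries and replicate 3 above them. Rpl35 varied least of all members at or above 10 CPM, at 529, 547 and 570 CPM in WT and 583, 537 and 585 CPM in RBM3KO (log2FC 0.05 ± 0.09 SE).

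In the small subunit, the proteins around the mRNA entry and decoding centre (Rps2, Rps3, Rps9, Rps15 and Rps23) had a median log2 fold change of -0.01, with 0 of 5 called. Rps2 was at 3343, 3058 and 3575 CPM in WT and 3370, 2726 and 3168 CPM in RBM3KO (log2FC -0.11 ± 0.09 SE, adjusted p = 0.756 by edgeR), with RBM3KO replicate 2 again lowest. Rpsa and Rps12 were among the most variable members: Rpsa stood at 1821, 1578 and 1558 CPM in WT and 1575, 1226 and 1852 CPM in RBM3KO. Rps12 stood at 279, 234 and 241 CPM in WT and 266, 190 and 309 CPM in RBM3KO, and for both genes the RBM3KO libraries reached below and above all WT libraries.

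Genes mutated in Diamond-Blackfan anaemia, an inherited failure of red cell production caused by loss of ribosomal proteins, were represented by 15 tested members, of which 0 were called and whose median log2 fold change was 0.00. Rps28 had the largest value among those at or above 10 CPM, at 584, 558 and 606 CPM in WT and 749, 552 and 696 CPM in RBM3KO (log2FC 0.19 ± 0.11 SE, adjusted p = 0.567 by edgeR). RBM3KO replicates 1 and 3 were above all WT libraries and replicate 2 below them. Rps19, the gene most often affected in that disease, had a log2FC of 0.12. Other members toward the ends of the range were Rpl10a (0.10), Rpl36 (0.09) and Rpl13a (0.09) above 0 and Rps13 (-0.14) below 0, each as a log2FC, with adjusted p between 0.642 and 0.846 by edgeR.

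The 5 tested paralogs all had log2 fold changes below 0, as did 5589 of the 11382 tested genes. Rpl22l1, Rpl36al and Rpl39l were closer to 0 than their SE, and 2 paralogs had groups that did not overlap. Rpl7l1 (chromosome 17, 46773907 to 46782672, mm10), a paralog of Rpl7, was at 133, 145 and 115 CPM in WT and 98.9, 104 and 106 CPM in RBM3KO. Every RBM3KO library was below every WT library (log2FC -0.35 ± 0.13 SE, adjusted p = 0.289 by edgeR), whereas the parent Rpl7 had a log2 fold change of -0.05. Rps27l (chromosome 9, 66946086 to 66949516, mm10), a paralog of Rps27 that p53 can induce, was at 249, 237 and 242 CPM in WT and 218, 212 and 211 CPM in RBM3KO. The groups again did not overlap (log2FC -0.18 ± 0.09 SE, adjusted p = 0.466 by edgeR), and the RBM3KO libraries lay close together, with an SD of 3.71 CPM against 6.13 CPM in WT.

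The other paralogs overlapped between the genotypes. Rpl22l1 was at 105, 111 and 111 CPM in WT and 90.5, 101 and 123 CPM in RBM3KO (log2FC -0.06), beside its parent Rpl22 at 182, 169 and 165 CPM and 163, 170 and 215 CPM (log2FC 0.08). Rpl36al, the autosomal paralog of the X-linked Rpl36a, was at 187, 199 and 166 CPM in WT and 181, 174 and 184 CPM in RBM3KO (log2FC -0.03). Rpl39l, known from testis, was barely detected, at 0.0739, 1.59 and 5.36 CPM in WT and 2.02, 1.37 and 3.50 CPM in RBM3KO. Its log2FC was -0.04 ± 1.26 SE by edgeR and 0.44 by limma-voom, so its direction is not settled. In all, groups that did not overlap were found for 4 of 81 members lower in RBM3KO (Rpl7l1, Rps27l and Rpl34 among them) and for 0 members higher, where 10.5% of all tested genes were lower and 8.43% higher without overlap (18.9% in either direction).

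Per kilobase of transcript, the 73 core members at or above 10 CPM ran from 138 to 3333 CPM per kilobase, a 24.2-fold range, with a median of 737. The highest were Rps2 (3333), Rpl41 (3272), which encodes the shortest of these proteins, Rps18 (3062), Rplp1 (3056) and Rplp0 (2949). The lowest among them, Rps15a (138) and Rps20 (157), have long annotated transcripts of 5130 and 3706 bases. By coding length they ranked 23 and 28 among the 76 core genes, so their low level depends on the transcript chosen. The order of levels per kilobase was close in both genotypes (Spearman's rho 0.994 over 76 genes of the same libraries, as a description).

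**Figure D4:**
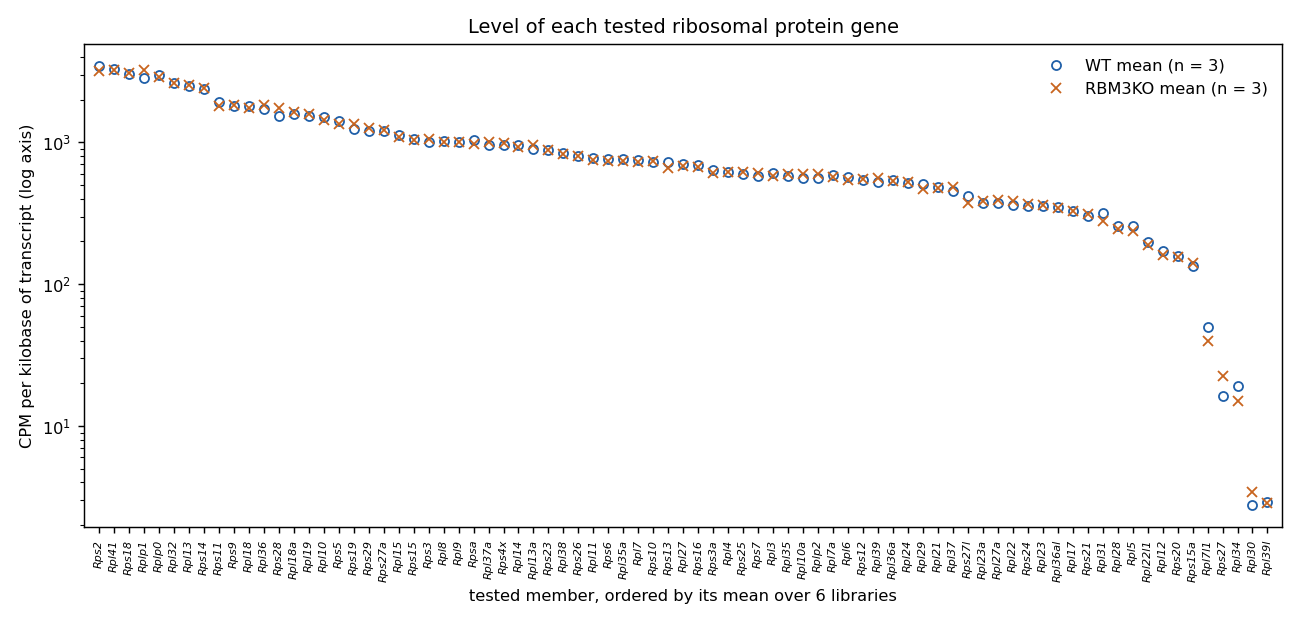
Mean CPM per kilobase of transcript (log axis) of 79 of the 81 tested members in WT (circles) and RBM3KO (crosses), ordered by the mean over the 6 libraries, n = 3 libraries per mean. The order is close in both genotypes, and Rps27, Rpl34, Rpl30 and Rpl39l stand far below the rest at the right.

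Core members with far lower counts than their partners were Rpl30, Rpl34 and Rps27, at 3.10, 17.2 and 19.3 CPM per kilobase. Their proteins are part of the same subunits as those of the other core members. Rpl34 stood at 8.65, 8.52 and 10.6 CPM in WT and 8.35, 5.43 and 7.94 CPM in RBM3KO, without overlap (log2FC -0.36 ± 0.42 SE, adjusted p = 0.844 by edgeR). Rps27 stood at 4.51, 9.11 and 3.09 CPM in WT and 9.13, 6.45 and 7.67 CPM in RBM3KO, and Rpl30 at 1.77, 2.06 and 0.901 CPM and 2.09, 1.37 and 2.42 CPM. Both overlapped between the groups and have wide intervals (log2FC 0.48 ± 0.55 SE for Rps27, and 0.31 with an interval of -2.11 to 2.73 for Rpl30).

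Near-identical copies are a known problem in counting these genes, since the genome holds many of their processed pseudogenes. Of the 82 members, 72 had at least 1 transcript annotated to another gene that matched 95% or more of the bases over 90% or more of the member's longest coding sequence. For 21 members the matched stretch was identical. The type and position of the other gene were not considered, and copies of a shorter part were not counted. Rpl21 had the most copies, 56, followed by Rpl7a with 31 and Rpl29 with 27, while Rpl30 had 12, Rpl34 had 5 and Rps27 had 4. Over the 76 tested core genes, the number of copies and the level per kilobase had a Spearman's rho of -0.086, given as a description. Single levels of these genes are therefore uncertain where reads were split or dropped. The table holds 5 rows named as ribosomal protein pseudogenes, with 75 to 203 counts in all per library.

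Rps27l stood above its parent Rps27 by a ratio of 20.5 in CPM per kilobase over the 6 libraries, the reverse of the other pairs given here. Rpl7 was above Rpl7l1 by a ratio of 16.4, Rpl39 above Rpl39l by 189, Rpl22 above Rpl22l1 by 1.93 and Rpl36a above Rpl36al by 1.55 on the same scale. Rps27 is the parent with few counts described before, and the part of its 4 copies in the ratio was not tested.

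The members were also split by the letters CTTTC near the start. The median log2FC was -0.00 over the 30 tested members at or above 10 CPM in which they were found, and the medians in RBM3KO replicates 2 and 3 were 0.874 and 1.11 times the WT mean. Over the 28 in which they were not found, the values were -0.01, 0.882 and 1.07. Both sets were thus below WT in RBM3KO replicate 2 and above it in RBM3KO replicate 3, and the difference between the sets was not tested.

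Genes that share the tract or the ribosome but fall outside the symbols were looked at beside the members. Fau, which encodes a ribosomal protein fused to a ubiquitin-like domain, stood at 827, 845 and 799 CPM in WT and 970.1, 795 and 998 CPM in RBM3KO (log2FC 0.16 ± 0.10 SE, adjusted p = 0.588 by edgeR). Its lowest value was in RBM3KO replicate 2 and its highest in RBM3KO replicate 3, so the groups overlapped. Gnb2l1, the scaffold RACK1 of the small subunit, stood at 1179, 1034 and 1071 CPM in WT and 1058, 861 and 1016 CPM in RBM3KO (log2FC -0.16 ± 0.10 SE, adjusted p = 0.579 by edgeR), with its lowest value in RBM3KO replicate 2 too. Across 23 tested transcripts listed as having a TOP tract, such as Eef1a1, Eef2 and Tpt1, the median deviations in RBM3KO were -0.07, -0.14 and 0.16 for replicates 1, 2 and 3, and 0 were called. Single genes of that list differed from its medians, as Eef1a1 was lowest in WT replicate 3 (3906 CPM, against 4647 CPM in RBM3KO replicate 2). Fau and Gnb2l1 are members of that list too.

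Mitochondrial ribosomal proteins, which make the separate ribosome of that organelle, lay below 0 in all 3 RBM3KO libraries. Their 76 tested genes had median deviations in RBM3KO of -0.05, -0.10 and -0.10 for replicates 1, 2 and 3, and 26 of them (34.2%) were lowest in replicate 2 and 20 (26.3%) in replicate 3. Of all tested genes, 1589 of 11382 and 18.2% were lowest there, and of the cytosolic members 80.2% and 2.5%. Their median log2 fold change was -0.14, with 62 of 76 below 0 and 0 called. Of all 11382 tested genes, 5589 were below 0 and 1.25% were called. The 78 nuclear genes of oxidative phosphorylation had a median of -0.07, also with 0 called. Ribosome biogenesis factors, which process and assemble ribosomes in the nucleolus, had a median of -0.16, with 39 of 53 below 0 and 0 called. The test of a difference between these lists and the cytosolic members was not run.

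**Figure D5:**
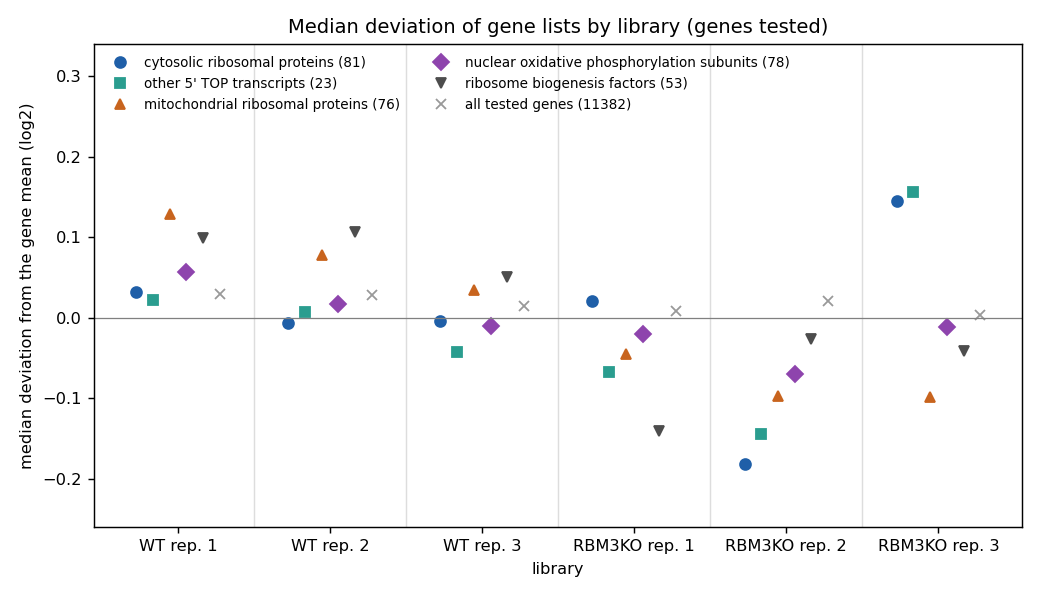
Median deviation (log2) of each gene list in each of the 6 libraries, with the number of tested genes in brackets. The cytosolic members and the other TOP transcripts lie near -0.18 and -0.14 in RBM3KO replicate 2 and near 0.14 and 0.16 in RBM3KO replicate 3, where the mitochondrial ribosomal proteins lie at -0.10 in both.

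Of 27 regulators of growth and of ribosomal protein mRNAs, among them Mtor, Larp1, Tsc2 and Myc, 1 was called, lower in RBM3KO, and 26 were not, where 1.25% of all tested genes were called and 1.00% were called lower. The called gene was Mxd3, a partner of MAX that opposes MYC at its target genes. It stood at 31.6, 20.9 and 24.9 CPM in the WT libraries and 6.85, 2.93 and 7.54 CPM in the RBM3KO libraries, with every RBM3KO library below every WT library. Its log2FC was -2.17 ± 0.41 SE (adjusted p = 0.0381 by edgeR). The call was lost when any 1 of the 6 libraries was left out, with a log2FC between -2.40 and -1.84 and an adjusted p between 0.0514 (without RBM3KO replicate 3) and 0.194 (without WT replicate 1) by edgeR. Over all 18 settings, which for this gene were added after its value was seen, it was called in 12, and the lowest adjusted p was 0.000129 (DESeq2).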

How the data were processed

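The values are raw counts of reads by gene symbol that the authors deposited as a table of unpooled samples. STAR 2.6.1c, Bowtie 1.0.0 and featureCounts 1.6.5, with the build mm10, are named without role or order in the submitters' processing notes. Annotation, strand setting and treatment of reads with several matches were not given in the sources used here. Libraries were made, per the labels, by Smart-seq2 and Nextera XT. In standard form these mark no strand and carry no molecular identifiers, so PCR copies are counted. The floors and the binomial interval of the share cover counting error only. Intervals of fold changes come from the edgeR fit and also include the estimated spread between libraries.

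Genes were filtered by edgeR's filterByExpr, scaled by TMM and tested with the quasi-likelihood test (R 4.3.3 with edgeR 4.0.16, robust fit without covariates, threshold 0.05) over 11382 genes. Fold changes are RBM3KO minus WT. CPM of single genes are TMM-scaled, and shares and sums of lists use total counts. limma 3.58.1 and DESeq2 1.42.0 served as alternatives, beside other scalings, filters, a length correction, equal depth, a replicate block and leaving out each library. The code was tested on simulated data. Lengths and positions came from GENCODE M21 (98.8% of genes matched), copies from BLAST 2.17.0, and start sequences from RefSeq. No libraries were identical, and the chi-square per degree of freedom was 21.5 for the closest pair.

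Members and lists were chosen with earlier results of these data known. The rule for named members takes any called member, the 6 most extreme fold changes per direction at 10 CPM or more, the 5 highest and lowest core levels per kilobase, the 5 most and least variable, paralogs with parents, the P stalk, Rpl5, Rpl11 and Rps2. Other lists give called genes and the 2 with the highest mean. Not every gene the rule takes is printed, and Sftpc, Malat1 and other genes outside it were chosen after their values were seen. Some genes are not reported here.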

Additional observations from a re-analysis of the deposited data

How the results depend on the processing

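The count of called members was 0 under each of 18 other settings and with Rps4y2 kept. The median log2 fold change of the members lay between -0.09 (without RBM3KO replicate 3) and 0.08 (without RBM3KO replicate 2). With only the total count as scale it was -0.06, with 21 above and 60 below 0, and with the length trend removed 0.02, with 50 above and 31 below. The difference in share ran from -0.52 to 0.11 percentage points when 1 library was left out. Of 752 estimates of named members under other settings, 59 changed sign and 0 were called. Over all genes 142 were called, 414 by DESeq2 (the cause was not tested), and 12 to 99 with 1 library left out, with fewer samples in each fit (12, 53 and 67 when WT replicate 1, 2 or 3 was dropped, and 78, 41 and 99 when RBM3KO replicate 1, 2 or 3 was). With the replicate block, 0 members and 149 genes were called. Deviations of WT and RBM3KO libraries with the same number correlated at 0.0612, 0.0566 and 0.0072, and those with different numbers at -0.0683 to 0.0211. The labels do not say that a number marks a shared litter, day or batch, so the numbers were not taken to pair the samples. Low counts limit Rpl30, Rpl34, Rps27, Rpl39l and Rpl3l, whose fold changes could be large without being detectable.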

Other observations

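Rps4y2, whose symbol fits the rule but which is annotated as a processed pseudogene now named Rps4l, stood at 38.7, 48.0 and 29.1 CPM in the WT libraries and 24.6, 32.1 and 27.9 CPM in the RBM3KO libraries, with overlap between the groups (log2 fold change -0.45, SE 0.25, edgeR adjusted p = 0.520). Its functional relative Rps4x, on the X chromosome, had means of 937 ± 37.4 and 964 ± 108 CPM in WT and RBM3KO (SD, n = 3 each; log2 fold change 0.04).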
